A study of Medicago truncatula with 6 samples.

Results

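Copia elements are LTR retrotransposons, a class of mobile DNA that copies itself through an RNA intermediate. A complete element carries a long terminal repeat at each end and, between these, genes for a capsid-like protein, a protease, an integrase and a reverse transcriptase with its RNase H, in that order. Gypsy elements, the other large group of plant LTR retrotransposons, have the integrase after the reverse transcriptase. Plant cells silence such elements with small interfering RNAs. Those of 21 and 22 nt are commonly cut from RNA polymerase II transcripts by the Dicer-like enzymes DCL4 and DCL2, whereas a longer class directs DNA methylation. SKI3 belongs to the Superkiller complex, which feeds RNA to the exosome for decay, and in Arabidopsis loss of RNA decay is known to let some transcripts enter small interfering RNA production.

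The members described here are the annotated Copia fragments of the Medicago truncatula genome in small RNA count tables of roots. They were chosen by the text of the feature ID, which begins with the superfamily code RLC and names an LTR retrotransposon, and no count was used. This gave 19597 fragments among 400216 annotated features. The ID also holds a family number, the number and position of a source element, the chromosome of the fragment and a running number on that chromosome. It gives no fragment length and no sequence, so the Copia label could not be checked against sequence, and a level per fragment is not a level per base.

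The tested roots carried RNAi against SKI3, and the control roots carried RNAi against GUS, a bacterial reporter enzyme that serves as a common RNAi control. Both kinds of root are labelled wild type in genotype and received a mock treatment. There were 3 libraries per group, named replicates 1 to 3, and the labels do not say whether a library pooled several plants or transformation events. Libraries held 2324061 to 2851473 counts in SKI3 RNAi and 2168297 to 3974092 counts in GUS RNAi. Levels are given as CPM, the counts of each library scaled to a common total, and 3 counts, used here as a detection floor, equal 1.05 to 1.29 CPM in SKI3 RNAi and 0.755 to 1.38 CPM in GUS RNAi. P-values measure the spread between these libraries, which may be technical. The table of SKI3 RNAi replicate 3 names reads of 21 to 22 nt in a stray header line, and the other tables name no read length. In these bulk samples, fewer cells that make a small RNA and less of it per cell cannot be told apart.

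Small RNA counts were spread thinly over Copia fragments, and a small part of them held most counts. A count in at least 1 library was found for 14670 fragments, 74.9% of the members, against 79.3% of all annotated features and 81.9% of Gypsy fragments. Counts in all 6 libraries were found for 5912 fragments. The median fragment had 0.227 CPM over the 6 libraries, the 75th percentile was 1.12 CPM and the 99th percentile 17.6 CPM. The 992 most counted fragments, 5.06% of the members, held 50% of the Copia CPM, and the 10 most counted held 2.25%. A mean of 1.46 CPM per Copia fragment compared with 1.598 CPM per Gypsy fragment and 2.49 CPM per fragment of TRIM elements, which are short LTR retrotransposons without coding genes. Of the members, 19377 lay on chromosomes 1 to 8, 213 on unplaced sequences and 7 on organelle genomes, and those 7 held 16 counts in all.

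The summed level of Copia small RNAs differed little between the groups, and its direction depended on the total it was scaled by. Copia fragments held 28996, 29974 and 27984 CPM in SKI3 RNAi replicates 1 to 3. In GUS RNAi replicates 1 to 3 they held 28294, 30046 and 26574 CPM. The groups overlapped, with means of 28985 ± 995 CPM in SKI3 RNAi and 28305 ± 1736 CPM in GUS RNAi (SD, n = 3 each). The difference of 680.0 CPM, 2.4% of the GUS RNAi mean, had an exact two-sided permutation p of 0.7, where 3 libraries against 3 can give no less than 0.1. The 10 most counted features of the table, none of them Copia, took 8.95% to 15.6% of the counts in SKI3 RNAi libraries and 13.1% to 21.1% in GUS RNAi libraries. With those 10 left out of the totals, Copia fragments held 32915, 32922 and 33143 CPM in SKI3 RNAi, against 34117, 34557 and 33693 CPM in GUS RNAi. Every SKI3 RNAi library then lay below every GUS RNAi library, and the difference was -1129 CPM, -3.31% of the GUS RNAi mean, at the smallest possible exact permutation p of 0.1. Totals scaled with TMM factors, which discount a few abundant features, gave a difference of -1188 CPM at the same p.

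**Figure D1:**
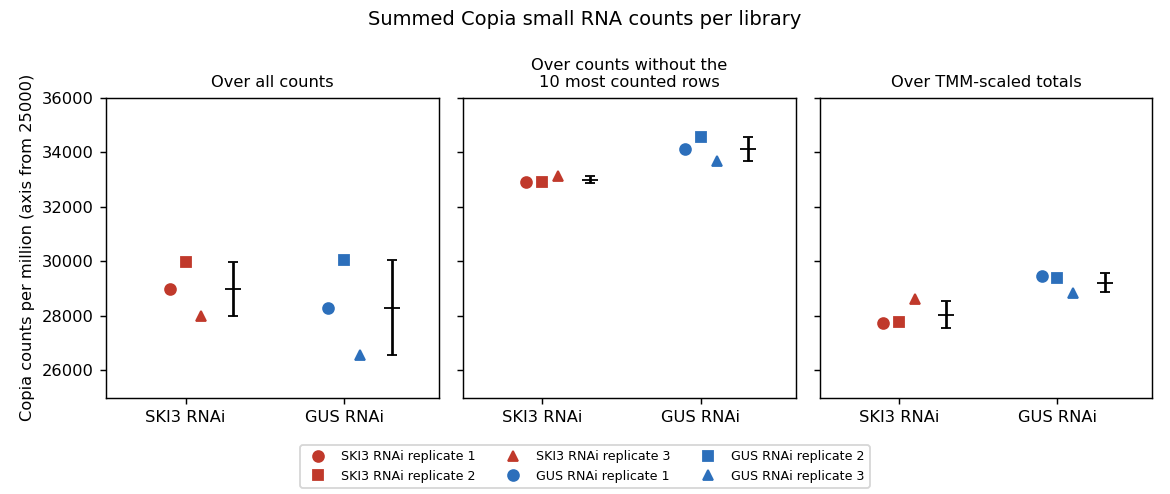
Summed Copia counts in each of the 6 libraries, as CPM of all counts (left), of counts without the 10 most counted features (middle) and of TMM-scaled totals (right). The vertical axis does not begin at 0, and black marks give the mean and SD of 3 libraries. The groups overlap in the left panel, and every SKI3 RNAi library lies below every GUS RNAi library in the other panels.

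Gypsy elements were the most like group for comparison within each library. Copia counts were 0.773 ± 0.0332 times Gypsy counts in SKI3 RNAi and 0.736 ± 0.0252 times in GUS RNAi (SD, n = 3 each). The difference in this ratio, 0.0370, does not depend on the scaling of a library, and its exact two-sided permutation p was 0.3. Leaving out SKI3 RNAi replicate 1 gave 0.0226, and leaving out GUS RNAi replicate 3 gave 0.0225. On the TMM scale, Gypsy fragments held 36340 ± 2224 CPM in SKI3 RNAi and 39734 ± 909 in GUS RNAi, a difference of -8.54%, where Copia fragments differed by -4.06%. As for Copia, every SKI3 RNAi library lay below every GUS RNAi library for Gypsy, with TMM scaling and without the 10 most counted features. All transposable elements together differed by -1.03% on the TMM scale, with overlapping groups.

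Copia fragments are assigned to 810 families. Of these, 390 carry a plain family number, with 8723 fragments and 54.1% of the Copia CPM, and 420 are named singleton families, with 10874 fragments. The fragments trace to 1205 source elements, which span 1.87 to 24.9 kb in their IDs with a median of 8.52 kb. Families with more fragments held more counts, with a Spearman correlation of 0.780 between fragment number and summed CPM over 810 families, which share libraries and depth. A family had a median of 12 fragments and 11.2 CPM. Above 100 CPM there were 57 families, below 1 CPM there were 188, and 39 had no count in any library. The 63 most counted families held 50% of the Copia CPM, and the 10 most counted held 25.1% of it with 14.1% of the fragments.

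Family 135 had the highest summed level of all Copia families. Its 248 fragments, on all 8 chromosomes, trace to a single source element at positions 3620811 to 3644022 of chromosome 6 in the ID, a span of 23.2 kb. The family held 1519, 1956 and 1922 CPM in SKI3 RNAi replicates 1 to 3, against 2021, 2019 and 1946 CPM in GUS RNAi replicates 1 to 3. SKI3 RNAi replicate 1 stood lowest and the other 5 libraries lay close together, so by CPM the groups overlapped through SKI3 RNAi replicate 2. On the TMM scale the family held 1453, 1811 and 1964 CPM in SKI3 RNAi and 2104, 1975 and 2110.3 CPM in GUS RNAi, and every SKI3 RNAi library lay below every GUS RNAi library. Unscaled means were 1799 ± 243 CPM in SKI3 RNAi and 1995 ± 43.0 CPM in GUS RNAi (SD, n = 3 each). On the TMM scale this gave a log2 fold change of -0.25 ± 0.126 (standard error; edgeR adjusted p 0.764), which became -0.15 without SKI3 RNAi replicate 1.

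Nearly all fragments of family 135 had a count in at least 1 library, at very different levels. Only 5 of the 248 had no count in any library, and 167 had counts in all 6. A mean under 1 CPM, near the detection floor, was found for 91 of them. The median fragment had 2.06 CPM, and 62 fragments above 10 CPM held 80.8% of the family total. Chromosome 7 held 23.2% of that total with 37 fragments and chromosome 3 held 19.9% with 36, whereas chromosome 2 held 4.97% with 35. The most counted fragment, number 11790 on chromosome 7, had 119, 136 and 202 counts in SKI3 RNAi and 240, 150 and 219 counts in GUS RNAi, at 59.2 ± 17.8 CPM and 64.1 ± 4.54 CPM (SD, n = 3 each). Its groups overlapped.

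Families 2 and 0 followed in level and were built differently. Family 2 had the most fragments of any Copia family, 688 from 28 source elements, of which 148 had no count. It held 1101, 1066 and 1064 CPM in SKI3 RNAi and 1101, 1151 and 1038 CPM in GUS RNAi. By CPM the groups overlapped. With TMM scaling, family 2 held 1053, 988 and 1088 CPM in SKI3 RNAi and 1146, 1126 and 1126 CPM in GUS RNAi, without overlap, and its log2 fold change was -0.12 (edgeR adjusted p 0.857). Family 0 had 255 fragments from 58 source elements. Its level was 1073, 811 and 972 CPM in SKI3 RNAi and 1060, 974 and 988 CPM in GUS RNAi, with SKI3 RNAi replicate 2 the lowest and overlapping groups on both scales. Chromosomes 8 and 7 held 23.9% and 22.2% of its CPM.

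The other 7 of the 10 most counted families overlapped between groups by CPM and on the TMM scale. Family 6 averaged 645 ± 37.8 CPM in SKI3 RNAi and 594 ± 50.9 CPM in GUS RNAi (SD, n = 3 each, also for the families that follow). Family 3 averaged 600.2 ± 5.18 CPM in SKI3 RNAi and 578 ± 28.7 CPM in GUS RNAi. Singleton family 27 averaged 564 ± 99.6 CPM in SKI3 RNAi and 613 ± 55.0 CPM in GUS RNAi. These 3 lay near each other in level, and the order of families 6, 3 and 27 was not resolved by the spread between libraries. Family 160 averaged 439 ± 15.9 and 434 ± 18.6 CPM, family 1 averaged 374 ± 25.9 and 339 ± 15.7 CPM, family 4 averaged 311 ± 19.7 and 344 ± 34.4 CPM and singleton family 391 averaged 289.8 ± 15.8 and 299.7 ± 8.63 CPM, in SKI3 RNAi and in GUS RNAi. Over the 10 families, log2 fold changes on the TMM scale ran from -0.25 to 0.05, and the smallest adjusted p in edgeR was 0.764, for family 135. On that scale 8 of the 10 lay below 0 and families 6 and 1 above it, and with total counts alone families 3 and 160 lay above 0 as well.

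**Figure D2:**
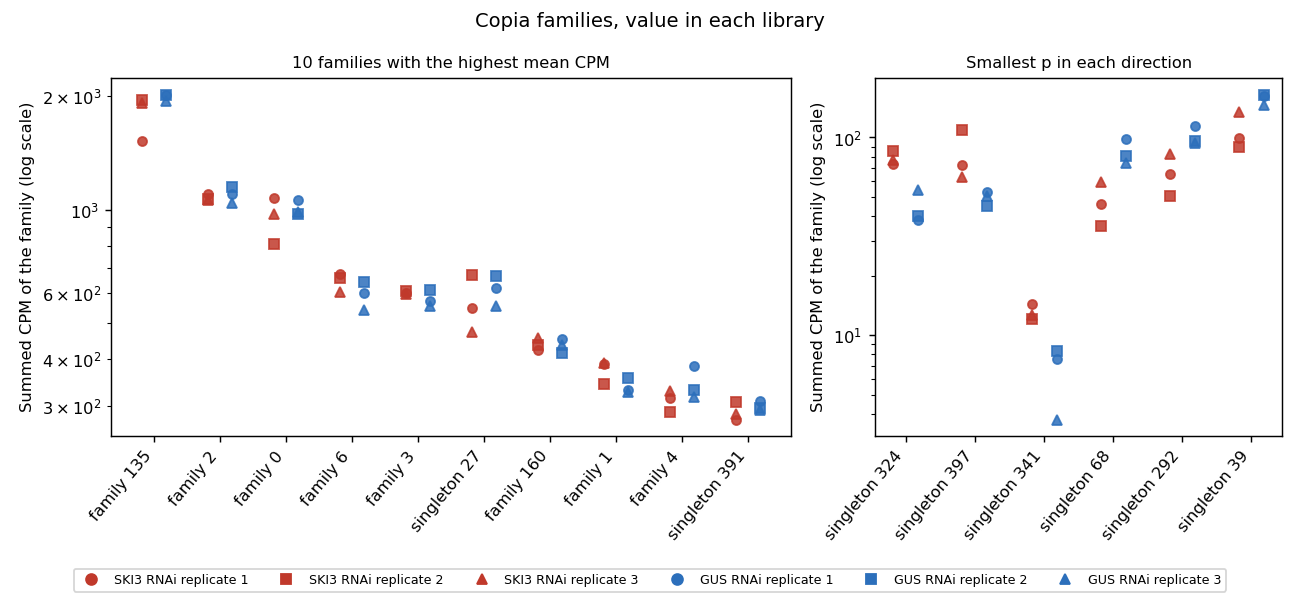
Summed CPM (log scale) of named Copia families in each library, for the 10 families with the highest mean (left) and the 3 families with the smallest p in each direction (right). Points are single libraries. Each of the left families has overlapping groups by CPM, and family 135 has its lowest value, 1519 CPM, in SKI3 RNAi replicate 1.

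These families spread their counts over fragments to different degrees. The 5 most counted fragments held 9.3% of family 2 and 14.3% of family 135. In families 160, 4, 391 and 27 they held 55.7%, 54.7%, 54.9% and 50.9%. Family 160 stood out by location, with 49.3% of its CPM on chromosome 3. Its fragment 16553 on that chromosome was the most counted of all Copia fragments, with 210, 157 and 250 counts in SKI3 RNAi and 325, 180 and 288 counts in GUS RNAi, or 79.0 ± 14.8 and 82.5 ± 0.629 CPM (SD, n = 3 each). The source element of this fragment lies on chromosome 1, at positions 52910751 to 52930477 in the ID. Among the 445 families with at least 10 fragments, the level per fragment had a median of 0.961 CPM and reached 12.1 CPM in singleton family 39, whose 11 fragments all had counts. Singleton family 287 followed with 8.57 CPM per fragment, family 252 with 8.52 and family 135 with 7.65.

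Each family was then tested for a difference between SKI3 RNAi and GUS RNAi, with the families of all transposable elements in a single fit. Counts were high enough for 528 of the 810 Copia families. In edgeR's quasi-likelihood fit, 0 of the 528 had a Benjamini-Hochberg adjusted p under 0.05, where the share over all 6465 tested families and classes was 0%, and the smallest adjusted p among Copia families was 0.557. The DESeq2 Wald test also gave 0. At an unadjusted p under 0.05 there were 31 Copia families, 5.87% of those tested, against 6.53% over all tested, and DESeq2 gave 20. Of the 31, 12 were higher in SKI3 RNAi, where 3.5% of all tested were, and 19 were lower, where 3.03% were. The higher ones were 38.7% of the called Copia families, against 53.6% of all called families and classes. With total counts alone, 21 were higher and 7 lower, so 75% of the called Copia families were higher, against 81% of all called families and classes. The median log2 fold change was -0.05 over Copia families and 0.01 over all tested families and classes on the TMM scale. Scaling by total counts shifted both, to 0.05 and 0.11. By CPM, the groups did not overlap in 49 higher and 19 lower Copia families, 9.28% and 3.60%, where all tested gave 10.6% and 2.82%. On the TMM scale they did not overlap in 32 higher and 43 lower, 6.06% and 8.14%, where all tested gave 6.95% and 5%.

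**Figure D3:**
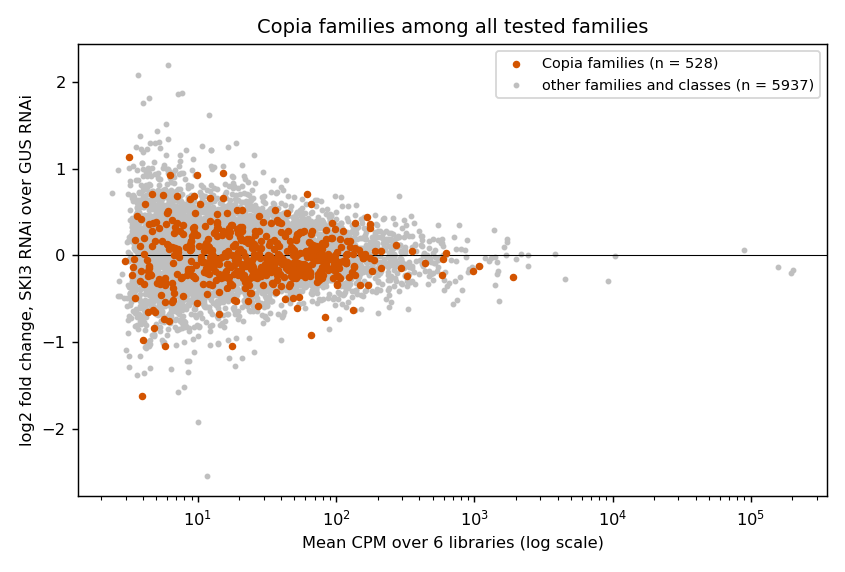
Log2 fold change of SKI3 RNAi over GUS RNAi against mean CPM over 6 libraries (log scale), for 528 Copia families (orange) and the other families and classes of the 6465 tested (grey), each point a family or class. Copia families lie within the range of the others, with a median of -0.05 against 0.01 over all.

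The Copia families with the smallest p among lower ones were singleton families 68, 39 and 292. Family 68 had 46.3, 35.7 and 59.7 CPM in SKI3 RNAi and 97.9, 80.2 and 74.3 CPM in GUS RNAi. Its groups did not overlap, with a log2 fold change of -0.92 ± 0.220 (standard error; edgeR adjusted p 0.557). All 5 of its tested fragments lay below 0. Family 39 had 99.9, 89.9 and 134.8 CPM in SKI3 RNAi and 162.3, 164.6 and 145.7 CPM in GUS RNAi, also without overlap. The fitted log2 fold change was -0.63 ± 0.186 (standard error; edgeR adjusted p 0.730). All 8 of its tested fragments lay below 0, and 6 of these had an unadjusted p under 0.05. Family 292 had 65.2, 50.8 and 82.3 CPM in SKI3 RNAi and 114.2, 95.9 and 94.1 CPM in GUS RNAi, with a log2 fold change of -0.71 (edgeR adjusted p 0.730) and no overlap. Of its 5 tested fragments, 4 lay below 0 and 1 above. These families were picked by the p of their summed counts, so the signs of their fragments are not separate support. Families 68 and 292 had fragments with nearly the same counts, and families 292 and 39 had fragments with similar profiles, both given below. Whether these families are separate measurements was not tested. The source elements of families 68, 39 and 292 lie on chromosomes 2, 1 and 6 and span 11.5, 5.99 and 5.05 kb.

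Among higher families the smallest p belonged to singleton families 324, 397 and 341. Family 324 had 73.6, 85.6 and 76.6 CPM in SKI3 RNAi and 38.2, 40.1 and 54.5 CPM in GUS RNAi. Every SKI3 RNAi library lay above every GUS RNAi library, with a log2 fold change of 0.71 ± 0.195 (standard error; edgeR adjusted p 0.730). All 8 of its tested fragments lay above 0, but they are parts of the sum by which the family was picked. Family 397 had 72.6, 108.9 and 62.8 CPM in SKI3 RNAi and 53.1, 44.7 and 50.5 CPM in GUS RNAi, without overlap and with a log2 fold change of 0.59. SKI3 RNAi replicate 2 was the highest library of family 397, and without it the log2 fold change was 0.38. Family 341 had 14.4, 12.0 and 12.6 CPM in SKI3 RNAi and 7.55, 8.3 and 3.73 CPM in GUS RNAi, and none of its 9 fragments had enough counts to be tested alone. Families 397 and 341 had an adjusted p of 0.730 in edgeR.

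Single fragments were tested in a fit over all annotated features. The filter on low counts kept 2147 Copia fragments, 11.0% of the members, from 431 families, and these held 69.6% of the Copia CPM. In edgeR, 0 of them had a Benjamini-Hochberg adjusted p under 0.05, against 0% of all 48283 tested features, and the DESeq2 Wald test also gave 0. At an unadjusted p under 0.05 there were 133 Copia fragments from 79 families, 6.19% of those tested, against 6.58% of all tested features. Of the 133, 59 were higher in SKI3 RNAi, where 3.58% of all features were, and 74 were lower, where 2.99% were. The higher ones were 44.4% of the called Copia fragments, against 54.5% of all called features. DESeq2 gave 28. Total counts alone gave 82 higher and 39 lower, so 67.8% of the called Copia fragments were higher, against 75.3% of all called features. The median log2 fold change of the tested Copia fragments was -0.08 against 0.02 for all tested features, and scaling by total counts shifted these to 0.02 and 0.12. By CPM, the groups did not overlap in 167 higher and 102 lower Copia fragments, 7.78% and 4.75%, where all features gave 10.5% and 3.6%. On the TMM scale they did not overlap in 126 higher and 149 lower, 5.87% and 6.94%, where all features gave 7.35% and 5.6%.

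The fragments with an unadjusted p under 0.05 came from a few families more than once. Family 135 gave 13 of its 95 tested fragments, 12 of them lower in SKI3 RNAi, and 14 of the 95, 14.7%, lay above 0 on the TMM scale, against 40.9% of the tested Copia fragments and 52.0% of all tested features. Family 3 gave 6 of 46, with 3 in each direction, and singleton family 39 gave 6 of 8, all lower. Family 2 gave 5 of 96, a share below that of all tested features. Family 4 gave 4 of 22, all lower. Fragments of a family share sequence and can share reads, so these are not separate measurements.

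Fragments with the smallest p in the lower direction belonged to singleton families 292 and 68 and had nearly the same counts. Fragment 4928 on chromosome 5, of family 292, had 28, 14 and 29 counts in SKI3 RNAi and 115, 41 and 73 counts in GUS RNAi. Fragment 15614 on chromosome 3, of family 68, had 26, 14 and 28 counts in SKI3 RNAi and 116, 38 and 66 counts in GUS RNAi. Each gave a log2 fold change of -1.44 (edgeR adjusted p 0.743), with standard errors of 0.294 and 0.305. These values from different families and chromosomes differed by at most 7 counts in a library. Fragment 30223 on chromosome 3, also of family 68, had 35, 20 and 33 counts in SKI3 RNAi and 123, 45 and 71 counts in GUS RNAi, with a log2 fold change of -1.20. All 3 fragments had groups that did not overlap. With no filter on low counts, the adjusted p in edgeR was 0.00065 for fragment 4928, 0.00080 for fragment 15614 and 0.011 for fragment 30223.

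In the higher direction, fragment 1155 on chromosome 1, of singleton family 270, had 67, 76 and 96 counts in SKI3 RNAi and 54, 23 and 38 counts in GUS RNAi. Its levels of 31.0 ± 6.79 CPM in SKI3 RNAi and 11.7 ± 1.64 CPM in GUS RNAi (SD, n = 3 each) did not overlap. This gave a log2 fold change of 1.29 ± 0.247 (standard error; edgeR adjusted p 0.743), and the adjusted p was 0.015 with no filter on low counts. Fragment 18 on chromosome 2, of family 75, had 18, 17 and 17 counts in SKI3 RNAi and 4, 6 and 7 counts in GUS RNAi. Fragment 16230 on chromosome 7, of family 3, had 19, 13 and 17 counts in SKI3 RNAi and 8, 6 and 6 counts in GUS RNAi. The log2 fold changes of these fragments were 1.77 and 1.47, each with an adjusted p of 0.743 in edgeR.

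Like counts in different Copia fragments were common. Of 1259 fragments with at least 100 counts over the 6 libraries, 243 had another Copia fragment whose counts agreed to within 10% in every library. These formed 241 pairs, of which 141 joined fragments of a family and 100 joined different families, and 125 pairs lay on the same chromosome. Among 3685 fragments with at least 30 counts, 229 had the same 6 counts as another feature, and for 73 of them that feature was a gene or a promoter. The most counted fragments of singleton family 27 show the pattern. Fragment 2885 on chromosome 6 had 137, 176 and 129 counts in SKI3 RNAi and 244, 165 and 200 counts in GUS RNAi. Fragment 24924 on chromosome 3 had 138, 174 and 129 counts in SKI3 RNAi and 244, 162 and 200 counts in GUS RNAi. Whether the same reads were counted in both was not tested.

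Similar profiles recurred in the most counted fragments of 4 singleton families that were picked after their values were seen. Fragment 27806 on chromosome 4, of family 391, had 141, 82 and 151 counts in SKI3 RNAi and 282, 156 and 229 counts in GUS RNAi. Fragment 23181 on chromosome 4, of family 298, had 126, 74 and 146 counts in SKI3 RNAi and 266, 144 and 220 counts in GUS RNAi. Those of family 292, number 7812 on chromosome 2, were 103, 72 and 147 in SKI3 RNAi and 244, 136 and 190 in GUS RNAi. Family 39 contributed fragment 6536 on chromosome 4, with 91, 65 and 145 counts in SKI3 RNAi and 226, 132 and 176 counts in GUS RNAi. SKI3 RNAi replicate 2 had the lowest CPM in all 4, and the groups did not overlap in the fragments of families 391 and 298. By CPM they overlapped in those of families 292 and 39, and on the TMM scale only in that of family 39 among these 4. The log2 fold changes of these 4 fragments lay between -0.66 and -0.61, with adjusted p-values of 0.743 to 0.754 in edgeR. The most counted fragment of singleton family 269, number 20604 on chromosome 8, had 220, 99 and 347 counts in SKI3 RNAi and 299, 82 and 196 counts in GUS RNAi, with a log2 fold change of 0.49 ± 0.398 (standard error; edgeR adjusted p 0.855). Its groups overlapped, and the value was -0.080 without SKI3 RNAi replicate 3.

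A further set of Copia fragments had many counts in SKI3 RNAi replicate 1 and few or none in the other SKI3 RNAi libraries. When SKI3 RNAi replicate 1 was left out, 22 of 2259 tested Copia fragments passed an adjusted p of 0.05 in edgeR, 1 higher and 21 lower. This share of 0.974% lay at the background, since 0.973% of all 50549 tested features passed. That background holds both directions, and how many of all passing features were lower was not counted. At an unadjusted p under 0.05 in this fit, 28.9% of the called Copia fragments were higher, against 47.6% of all called features. The higher one was fragment 1155 of family 270. In all 21 lower fragments, SKI3 RNAi replicate 1 had the highest CPM of the 6 libraries. They held 30 to 125 counts in SKI3 RNAi replicate 1 and at most 12 in replicates 2 and 3, against 17 to 73, 8 to 37 and 19 to 65 counts in GUS RNAi replicates 1 to 3. The fit that picked these 21 used only replicates 2 and 3 of SKI3 RNAi, so their low counts there are not a separate finding. With all libraries, none of the 21 had an unadjusted p under 0.05. They came from 13 families and 6 chromosomes. Fragment 11215 on chromosome 1, of family 0, had 125, 0 and 1 counts in SKI3 RNAi and 63, 31 and 65 counts in GUS RNAi. Fragment 4896 on chromosome 3, of family 439, had 77, 0 and 0 counts in SKI3 RNAi and 40, 19 and 43 counts in GUS RNAi. Of the 1259 fragments with at least 100 counts, 6 had counts in the ratio 4:0:0 in SKI3 RNAi to 2:1:2 in GUS RNAi. This pair was among the 6, at a tolerance of 0.03 in each library's share. The ratio was set with these counts known, and how many of all features had it was not counted. GUS RNAi replicates 1 to 3 held 3974092, 2168297 and 3486290 counts in total, and fragment 11215 had 15.9, 14.3 and 18.6 CPM in them. Family 439 as a whole had 196, 19 and 20 counts in SKI3 RNAi and 116, 58 and 111 counts in GUS RNAi.

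**Figure D4:**
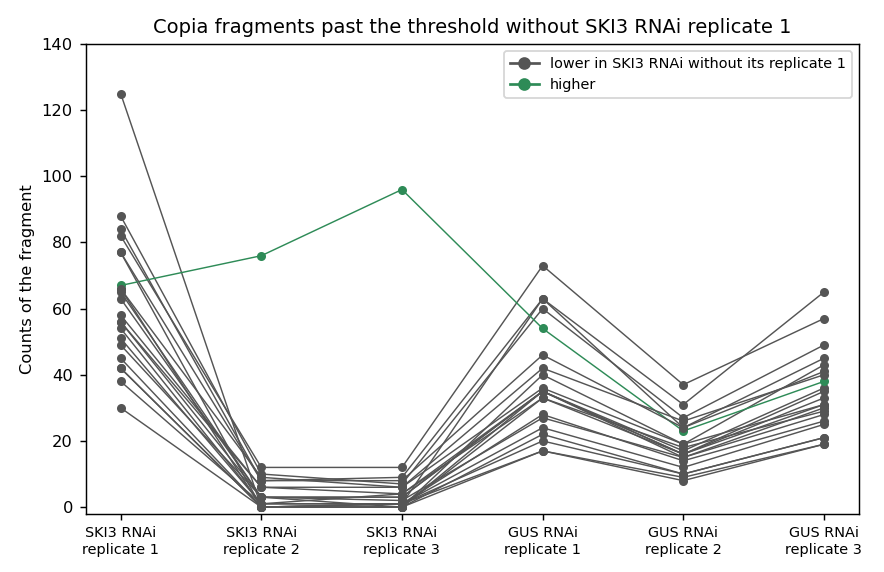
Counts in each library of the 22 Copia fragments with an adjusted p under 0.05 when SKI3 RNAi replicate 1 was left out. Each line is a fragment, 21 lower (grey) and 1 higher (green) in SKI3 RNAi replicates 2 and 3 than in GUS RNAi. The grey lines are highest in SKI3 RNAi replicate 1, at 30 to 125 counts, and at most 12 in replicates 2 and 3.

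Copia small RNAs were found on every chromosome at similar levels per fragment. Chromosomes 7 and 3 held the most, 15.7% and 15.6% of the Copia CPM, and chromosomes 1 and 5 the least, 9.62% and 9.75%. Chromosome 7 had 4561 ± 138 CPM in SKI3 RNAi and 4424 ± 201 CPM in GUS RNAi (SD, n = 3 each, also for the values that follow). Chromosome 3 had 4490.0 ± 199 CPM in SKI3 RNAi and 4464 ± 224 CPM in GUS RNAi. The levels of chromosomes 7 and 3 did not differ beyond their spread. Chromosome 1 had 2823 ± 82.1 CPM in SKI3 RNAi and 2691 ± 206 CPM in GUS RNAi. Per fragment, chromosome 7 had 1.67 CPM from 2691 fragments and chromosome 1 had 1.24 CPM from 2226. Copia fragments made up 8.18% to 9.93% of the transposable element fragments of a chromosome and took 7.15% to 9.79% of their counts. The groups differed by 25.7 to 136.2 CPM on single chromosomes, all higher in SKI3 RNAi by CPM and all lower on the TMM scale. By CPM, the smallest exact two-sided permutation p was 0.3, on chromosome 8, and the adjusted p over 8 chromosomes was 0.9 for each. With TMM scaling, chromosomes 3, 4 and 5 had the smallest possible exact permutation p of 0.1, and without the 10 most counted features chromosomes 2, 3, 4, 5 and 7 had it.

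The running number may follow the order of fragments along a chromosome, but the IDs give no fragment position to check this. Only source element positions could be compared, and the share expected for a random order was not computed. Among all transposable element fragments with a source element on the same chromosome, 48.4% to 56.9% had a relative number within 0.1 of the relative position of that element. With each chromosome split into 10 equal parts of this order, Copia CPM was highest in the fifth part and lowest in the last. The fifth part held 4077 ± 40.7 CPM in SKI3 RNAi and 4090 ± 216 CPM in GUS RNAi, and the last part held 2239 ± 170.0 CPM in SKI3 RNAi and 2102 ± 169 CPM in GUS RNAi (SD, n = 3 each). Each library showed this peak in the sum. Taken singly, chromosomes 1, 2, 3, 4 and 8 had their highest level in the fifth part. Part 7 was highest on chromosome 5 (353 CPM), part 4 on chromosome 6 (548 CPM) and part 6 on chromosome 7 (665 CPM). The last part was lowest only on chromosomes 3 and 8. In the sum, the fifth part also had the most Copia fragments, 2347 against 1602 in the last. There the level per fragment differed less, at 1.74 and 1.36 CPM. Copia fragments made up 10.8% of the transposable element fragments there and 7.35% in the last part.

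**Figure D5:**
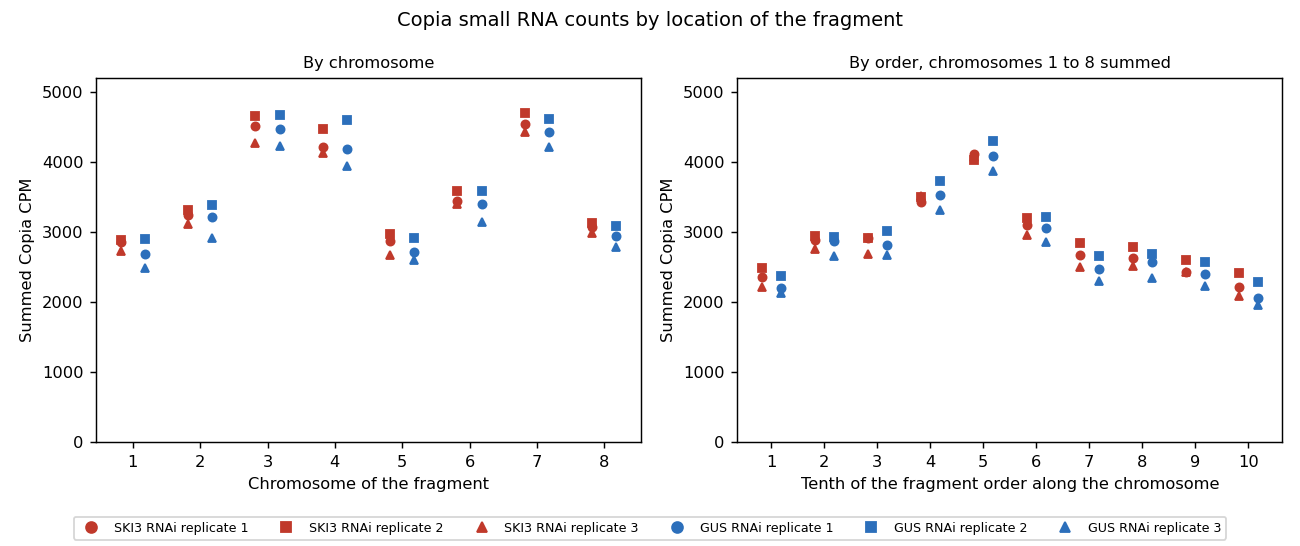
Summed Copia CPM in each library by chromosome of the fragment (left) and by 10 equal parts of the fragment order by running number, summed over chromosomes 1 to 8 (right). Points are single libraries. The fifth part is highest, at 4077 CPM in SKI3 RNAi and 4090 CPM in GUS RNAi on average, and by CPM the groups overlap on each chromosome and in each part.

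Most Copia fragments lay on another chromosome than their source element, and those had more counts. On chromosomes 1 to 8, 4054 fragments, 20.9%, shared the chromosome of the element, with a mean of 0.858 CPM per fragment over all libraries against 1.63 CPM for the others. The span of the source element was only weakly related to level. Fragments of elements of 10 to 15 kb had the highest mean, 1.77 CPM per fragment, and those of elements up to 5 kb the lowest, 1.13 CPM. Over 810 families, the Spearman correlation between median element span and CPM per fragment was 0.294, a description over families that share libraries.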

How the data were processed

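The deposited tables hold whole-number counts for each annotated feature, unnormalised, in 6 small RNA libraries from mock-treated Medicago truncatula roots. Per the labels' protocols, RNA was extracted with Trizol and libraries were made with the NEBNext small RNA kit, with no mention of molecular identifiers, so floors cover counting error only. The submitters' processing notes name cutadapt 2.10, Bowtie 1.3.1 and DESeq2 1.34.0. How multiply aligned reads were counted, the genome build and strand handling are not given in the sources used here, and feature IDs carry MtrunA17 names. A stray header line in the table of SKI3 RNAi replicate 3 was left out.

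Groups and replicate numbers came from the sample titles. Differences were tested in edgeR 4.0.16 under R 4.3.3 with TMM factors, filterByExpr at a minimum count of 10, the quasi-likelihood test with group as the only term, and Benjamini-Hochberg adjustment over all tested features, at a threshold of 0.05. The filter left out 17450 Copia fragments and 282 Copia families. A second fit used counts summed by family for all transposable elements, with each other annotation class as a single unit and library sizes from the whole table. The standard error is the log2 fold change divided by the root of F. DESeq2 1.42.0 was an alternative test, and single values were compared with exact permutation tests in SciPy 1.17.1. Both fits were also run on simulated counts in which features shared no reads, and no result here rests on that run.

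The members and lists were chosen with earlier results of these data known. Named were the 10 families and 10 fragments with the highest mean CPM and the 3 with the smallest p in each direction, a subset of the fragments in full. No family or fragment passed the adjusted threshold. The source elements' positions are those written in the IDs. Scaling, filter, test, replicate block and each library were varied in turn.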

Additional observations from a re-analysis of the deposited data

How the results depend on the processing

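Copia fragments past the adjusted threshold in edgeR ranged from 0 to 22 over the 6 fits that each left out a library. The 22 came only without SKI3 RNAi replicate 1 (0.974%, against 0.973% of all features). Copia families ranged from 0 to 1, the 1 being family 439 in that fit (0.186%, against 0.121% of all tested families and classes). Without a filter on low counts, 11 Copia fragments (0.0750%, against 0.109% of all features) and 1 family, singleton family 68 (0.130% against 0.149%), passed. The 11 include fragments 4928, 15614, 30223 and 1155 and also a fragment of singleton family 358 on chromosome 4, whose 24 counts all lie in SKI3 RNAi replicate 1. Fragments at an unadjusted p under 0.05 numbered 649 without a filter (4.42%, against 4.64% of all features), 28 with DESeq2 (1.304% against 2.38%) and 313 where 3 libraries had to reach 1 CPM (5.70% against 5.73%). With a library left out they ranged from 100 without GUS RNAi replicate 1 (4.29% against 5.30%) to 184 without SKI3 RNAi replicate 3 (7.47% against 8.94%). Families numbered 20 with DESeq2 (3.79% against 4.39%). With a library left out they numbered 18 without GUS RNAi replicate 3 (3.34% against 4.55%) and 19 without its replicate 1 (3.53% against 6.33%). The highest number was 35, without SKI3 RNAi replicate 3 (6.46% against 9.87%). The difference in summed Copia level turned to -1129 (-3.31% of the GUS RNAi mean) without the 10 most counted features. With TMM factors it was -1188 (-4.06%). As CPM of transposable element counts alone it was -2561, which is -3.03% of a larger GUS RNAi mean of 84428 (exact two-sided permutation p 0.2). By CPM of all counts it ranged from -185 (without GUS RNAi replicate 3) to 1551 (without GUS RNAi replicate 2). On chromosomes 1 to 8 the difference turned to -27.7, -149, -274, -251, -82.8, -114, -145 and -58.6 without those 10 features. With TMM factors it was -45.1, -152, -269.6, -247, -93.0, -124, -159 and -73.3. As CPM of transposable element counts alone it was -45.1, -343, -641, -588, -181, -257, -322 and -121. This last set is on a larger scale, so its sizes cannot be set against the others. With a library left out, the difference by CPM of all counts ranged from -73.6 to 163 on chromosome 2, -90.3 to 133 on chromosome 3, -121 to 206 on chromosome 4 and -16.2 to 203 on chromosome 6. The log2 fold change of family 6 was -0.013 without a filter and -0.022 to 0.053 with a library left out. That of family 1 ranged from -0.023 to 0.146, that of fragment 20604 of family 269 from -0.080 to 0.813 and that of fragment 11790 of family 135 from -0.516 to 0.00019. With total counts alone, family 3 stood at 0.053 and family 160 at 0.016. The causes were not tested. The labels do not say that replicate numbers pair libraries, so the main fits did not take them as pairs. Over all tested features, libraries that share a replicate number correlated in their deviations from the group means at 0.0694, 0.182 and 0.251. Those with different numbers correlated at -0.210 to 0.0709, so a shared effect of the replicate number was not excluded. GUS RNAi replicate 1 correlated slightly better with SKI3 RNAi replicate 2, at 0.0709, and each of the other libraries correlated best with its own number. Over the tested Copia fragments alone, libraries of the same number correlated at 0.0325, 0.190 and 0.0804, and those of different numbers at -0.138 to 0.0470. There SKI3 RNAi replicate 1 correlated best with GUS RNAi replicate 3, at 0.0470. A fit with the replicate block gave 0 Copia fragments and 0 families past the adjusted threshold, and 144 and 33 at an unadjusted p under 0.05 (6.71% of Copia fragments against 7.98% of all features, and 6.25% of Copia families against 7.80% of all). The filter at a minimum count of 10 left 17450 of the 19597 fragments untested, and 4927 had no count.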
